A study of Mus musculus with 12 samples.

Results

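IMPDH2, inosine monophosphate dehydrogenase 2, catalyses the rate-limiting step of guanine nucleotide synthesis, the oxidation of inosine monophosphate to xanthosine monophosphate, and IMPDH1 is its paralogue. Guanine nucleotides feed RNA and DNA synthesis, ribosome production and signalling by GTP-binding proteins, and dividing cells draw on them heavily. The comparison described here is that of LysM-cKO with wild-type (WT) bone marrow cultures titled R0D3. Its libraries were taken by their labelled genotype and title, 2 per genotype and 4 of the 12 in the series. It covers every gene that passed a filter on low counts, 14030 of 55401 gene identifiers. The question it addresses is what the loss of Impdh2 in the myeloid lineage does to gene expression in the cultures from which osteoclasts are grown.

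Both groups came from mouse bone marrow cells grown for 3 days with L929 cell supernatant, a source of the macrophage growth factor M-CSF, equivalent to 20 ng/ml. The protocol in the labels then has the attached macrophages reseeded and given 40 ng/ml of RANKL, the cytokine that drives osteoclast formation. The same text stands on all 8 culture libraries, and the labels do not say what R0 and R40 stand for, so the titles are used as names. LysM-cKO denotes deletion of Impdh2 in myeloid cells. In the commonly used LysM-Cre line the recombinase is inserted into the lysozyme gene Lyz2. The labels name neither the line, nor the exons removed, nor whether the WT mice carried Cre, so the Cre allele and the loss of Impdh2 cannot be told apart. They also do not say whether replicates were separate mice or cultures, and p-values measure the spread between these libraries only.

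The 4 libraries held 16266611 to 17450656 counts. Levels are given in CPM, read counts scaled to a common library size, where 3 counts, taken as the floor of detection, correspond to 0.172 to 0.187 CPM; the floor covers counting error only. Differences are log2 fold changes of LysM-cKO over WT from the edgeR quasi-likelihood test with the replicate number as a pair, fitted on all 8 culture libraries. A gene passed at a Benjamini-Hochberg adjusted p under 0.05 over all genes tested. In bulk RNA, fewer cells of a type and less RNA per cell cannot be told apart.

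The samples are labelled as osteoclasts, and this was checked first. The R0D3 libraries expressed macrophage genes, and their osteoclast markers summed lower than at R40D3. Macrophage identity genes summed to 50591 and 48172 CPM in WT and 48502 and 44920 CPM in LysM-cKO, with Apoe, Mpeg1, Lgals3 and Mrc1 the most abundant. The 26 osteoclast markers found in the files summed to 1950 and 1832 CPM in WT and 1844 and 1881 CPM in LysM-cKO, against 16876 to 46582 CPM in the 4 R40D3 libraries. Acp5, the osteoclast phosphatase known as TRAP, was at 15.8 and 13.1 CPM in WT and 14.5 and 12.4 CPM in LysM-cKO, against 2854 to 9379 CPM at R40D3. Calcr, the calcitonin receptor, had 0 counts in all 4 R0D3 libraries, which allows up to the floor in each. Oscar, an osteoclast receptor, and Car2, a carbonic anhydrase, did not exceed the floor in any R0D3 library. Acp5, Calcr, Oscar and Car2 were not picked by level, and most of the R0D3 list sum came from markers not named here.

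In the whole comparison 3 genes passed, which is 0.0214% of those tested. Impdh2 and its processed pseudogene Impdh2-ps fell, and Lyz1, a lysozyme gene that lies beside Lyz2, rose. No other difference described below passed in this edgeR fit, called the main fit, and these are given as values. Counts of list members at an unadjusted p under 0.05 are to be read against the shares of all genes tested, 6.53% higher and 3.99% lower. Both LysM-cKO libraries lay above both WT libraries for 17.5% of all genes tested and below them for 14.8%.

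The sequences of these genes bear on what their counts measure, since reads from near-identical copies can be divided between them. Over 1545 bases of coding sequence Impdh2 and Impdh2-ps differ at 4 positions (99.7% identity), and 67.1% of their 150-base windows are identical. Bases 802 to 891 of the coding sequence (GENCODE M21, GRCm38) are shown because they hold 2 of those positions, in capitals.
Impdh2: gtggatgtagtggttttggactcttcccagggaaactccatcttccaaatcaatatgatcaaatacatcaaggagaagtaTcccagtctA
Impdh2-ps: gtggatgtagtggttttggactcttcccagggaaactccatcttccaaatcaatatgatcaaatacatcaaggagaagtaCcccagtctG
The lysozyme genes Lyz2 and Lyz1 differ more. Over 447 coding bases they differ at 22 positions (95.1% identity), 20.1% of 50-base windows are identical, and 0% of 150-base windows are. Bases 43 to 132 of the coding sequence are shown because they hold 13 of the differing positions, again in capitals.
Lyz2: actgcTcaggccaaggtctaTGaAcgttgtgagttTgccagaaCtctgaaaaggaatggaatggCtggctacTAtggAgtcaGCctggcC
Lyz1: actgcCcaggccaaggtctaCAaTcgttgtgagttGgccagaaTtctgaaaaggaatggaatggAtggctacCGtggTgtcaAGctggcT

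Impdh2 (ENSMUSG00000062867, a protein-coding gene at 108560286 to 108565584 of chromosome 9, plus strand) had 22.3 and 28.2 CPM in WT replicates 1 and 2, against 7.36 and 7.03 CPM in LysM-cKO replicates 1 and 2. Both LysM-cKO libraries lay below both WT libraries. Means of 25.3 ± 4.19 CPM in WT and 7.20 ± 0.230 CPM in LysM-cKO (SD, n = 2) left 28.5% of the WT level. The log2 fold change was −1.80 (SE 0.13, edgeR adjusted p 0.00239). Without WT replicate 2 it was −1.67 and did not pass (edgeR adjusted p 0.0697). Exons of Impdh2 overlap those of Ndufaf3, and the use of strand in counting is not given in the sources used here.

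Impdh2-ps (ENSMUSG00000071041, chromosome 8, 100030558 to 100032102, plus strand) was at 16.7 and 17.5 CPM in WT and 3.45 and 3.94 CPM in LysM-cKO, again with no overlap. Its log2 fold change was −2.21 (SE 0.16, edgeR adjusted p 0.00239). Impdh2-ps did not pass without WT replicate 1 (−2.15, edgeR adjusted p 0.0511) or without WT replicate 2 (−2.27, adjusted p 0.0697). With the counts of Impdh2 and Impdh2-ps summed, the log2 fold change was −1.96 (edgeR adjusted p 0.000363). The paralogue Impdh1 (ENSMUSG00000003500, chromosome 6, 29200434 to 29216364, minus strand) was at 33.1 and 30.7 CPM in WT and 31.8 and 36.9 CPM in LysM-cKO, and its groups overlapped. Its log2 fold change was 0.11 (SE 0.10, edgeR adjusted p 0.774), and the log2 differences within pairs 1 and 2 had opposite signs, −0.05 and 0.26.

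Lyz1 and Lyz2 encode lysozyme, a secreted enzyme that cleaves bacterial cell walls, and Lyz2 is the form abundant in macrophages. Lyz1 (ENSMUSG00000069515, chromosome 10, 117287797 to 117292868, minus strand) had 27.3 and 19.9 CPM in WT against 89.5 and 74.2 CPM in LysM-cKO. The groups were far apart, with means of 23.6 ± 5.21 and 81.8 ± 10.9 CPM (SD, n = 2), a 3.49-fold difference. Its log2 fold change was 1.80 (SE 0.12, edgeR adjusted p 0.00239). Lyz2 (ENSMUSG00000069516, chromosome 10, 117277331 to 117282321, minus strand) had 29996 and 35255 CPM in WT against 15404 and 16856 CPM in LysM-cKO. Both LysM-cKO libraries lay below both WT libraries, at 49.4% of the WT mean, but the log2 fold change was −1.01 (SE 0.20) and the gene did not pass (edgeR adjusted p 0.229). The lysozyme genes thus went in opposite directions in both pairs.

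Per 1000 Lyz2 counts there were 0.909 and 0.564 Lyz1 counts in WT and 5.81 and 4.40 in LysM-cKO. How reads were divided between Lyz1 and Lyz2 was not tested. Without the pairing the log2 fold change of Lyz1 was 1.79 and it did not pass (edgeR adjusted p 0.524), and it also missed the threshold without WT replicate 1 (1.85, adjusted p 0.0511) and without WT replicate 2 (1.76, adjusted p 0.0697). Of the 14 other genes tested within 1 Mb of Lyz2, 0 passed and their median log2 fold change was 0.06. At an unadjusted p under 0.05, 3 of the 14 were higher (Mdm2, Cpsf6 and Mdm1, named after their values were seen) and 0 lower, against 6.53% and 3.99% of all genes tested. Of the 57 other genes tested within 1 Mb of Impdh2, 0 passed, 2 were higher and 1 lower at that p, and their median was 0.01, close to the 0.01 of all genes tested.

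**Figure D1:**
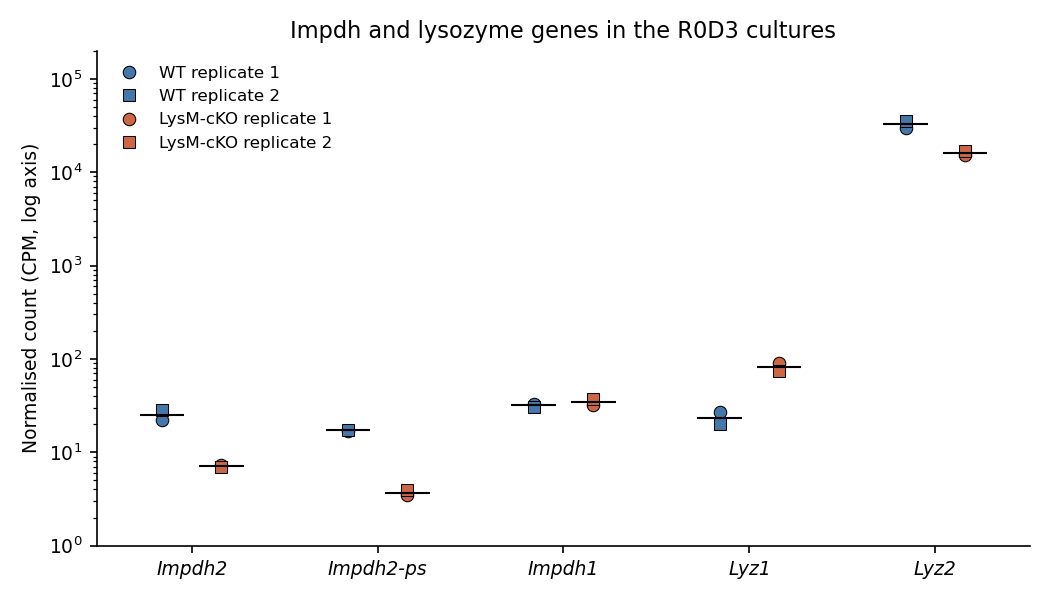
Normalised counts (CPM, log axis) of the Impdh and lysozyme genes in the 4 R0D3 libraries; points are libraries, circles replicate 1 and squares replicate 2, and bars are the means of 2. Impdh2 and Impdh2-ps lie lower and Lyz1 higher in LysM-cKO, Impdh1 overlaps between genotypes, and Lyz2 is at 15404 and 16856 CPM against 29996 and 35255 CPM.

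The other genes of guanine nucleotide metabolism were examined next. Of 14 tested members of the synthesis and salvage list, Impdh2 alone passed, and the list median was 0.06. Gmps, which makes GMP from the product of IMPDH, was at 40.0 and 41.4 CPM in WT and 41.6 and 42.5 CPM in LysM-cKO. Hprt, the main salvage enzyme for guanine and hypoxanthine, was at 151 and 178 CPM in WT and 149 and 213 CPM in LysM-cKO, with overlap. At an unadjusted p under 0.05, 2 of the 14 were higher and 1, Impdh2, lower, against 6.53% and 3.99% of all genes tested. Without the pairing 1 was higher, against 3.02% of all genes. The smallest p after Impdh2 belonged to genes of guanine catabolism and interconversion. Gda, guanine deaminase, was at 39.0 and 34.9 CPM in WT and 47.4 and 60.8 CPM in LysM-cKO, without overlap (log2 fold change 0.56, SE 0.18, edgeR adjusted p 0.343). Gmpr, which converts GMP back to IMP, was at 8.39 and 11.4 CPM against 10.7 and 15.2 CPM, higher within each pair but with overlap between groups (0.39, SE 0.14). Xdh, which oxidises xanthine to uric acid, was at 378 and 288 CPM against 382 and 400 CPM.

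The de novo purine and adenine list, which holds the steps before and beside IMPDH, had a median of 0.03 with 0 of 15 members passing. Pfas, an enzyme of the shared purine pathway, was at 16.1 and 17.9 CPM in WT and 19 and 21.5 CPM in LysM-cKO (log2 fold change 0.25, SE 0.11, edgeR adjusted p 0.488). Prpsap1, an associated protein of phosphoribosyl pyrophosphate synthetase, was at 43.0 and 45.5 CPM against 35 and 39.7 CPM (−0.25, SE 0.08). Both kept their groups apart, by margins of a few CPM.

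Beyond single genes, most genes of mitosis were higher in LysM-cKO, though none passed. Mitotic genes encode the cyclins, kinases, kinesins and kinetochore proteins made as cells approach division. All 44 were tested and 0 passed, with a smallest edgeR adjusted p of 0.218. Yet 42 of 44 were higher in LysM-cKO at an unadjusted p under 0.05, against 6.53% of all genes tested, and 0 were lower. In both pairs 42 of 44 were higher, against 29.5% of all genes. Both LysM-cKO libraries lay above both WT libraries for 15 of the 44 and below them for 1, against 17.5% and 14.8% of all genes. The median log2 fold change was 0.94. The summed level was 678 and 946 CPM in WT and 954 and 2013 CPM in LysM-cKO. LysM-cKO replicate 2 was the highest library, LysM-cKO replicate 1 was level with WT replicate 2, and the pair medians were 0.52 and 1.16.

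Among the members with the smallest p, Nusap1, which bundles spindle microtubules, was at 5.01 and 10.4 CPM in WT and 12.6 and 34.1 CPM in LysM-cKO. Its groups did not overlap (log2 fold change 1.55, SE 0.30, edgeR adjusted p 0.229). Ccnb2, a B-type cyclin, was at 6.58 and 16.7 CPM against 12.1 and 41.7 CPM. Here the groups overlapped, and the difference stands only within pairs (1.15, SE 0.21). Ndc80, a kinetochore protein that holds microtubules, was at 3.61 and 8.08 CPM against 7.99 and 21.8 CPM (1.32, SE 0.26). Smc4, a condensin subunit that compacts chromosomes, was at 55.8 and 58.1 CPM against 77.3 and 86.8 CPM, with tight replicates and no overlap (0.53, SE 0.10). The exceptions of the list, named after their values were seen, were Cenpa, the centromeric histone, at 0.03 and Pttg1, securin, at −0.13. Mki67, a common marker of cycling cells that was likewise named afterwards, was at 60.4 and 87.9 CPM in WT and 110 and 196 CPM in LysM-cKO (1.03, SE 0.25, edgeR adjusted p 0.261).

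How many mitotic genes stand out depends on the libraries. Without LysM-cKO replicate 2, 17 of 44 were higher at an unadjusted p under 0.05 and the median was 0.54, and without WT replicate 2, 20 were. Without the pairing 15 were. All of these settings also lowered the share among all genes tested, to 2.72%, 2.62% and 3.02%. Without LysM-cKO replicate 1 the count stayed at 42 and the median was 1.19.

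Genes of DNA replication and of deoxynucleotide supply, the S phase set, stood closer to no difference than the mitotic genes. Of 43 members 0 passed, 17 were higher at an unadjusted p under 0.05 and 0 were lower, against 6.53% and 3.99% of all genes tested, with a median of 0.40. Nearly all of it came from pair 2, with a median of 0.69 against 0.08 in pair 1. Both LysM-cKO libraries lay above both WT libraries for 6 of the 43 and below them for 0, against 17.5% and 14.8% of all genes. Tk1, the thymidine kinase of S phase, was at 9.96 and 15.4 CPM in WT and 15.6 and 39.7 CPM in LysM-cKO (log2 fold change 1.06, SE 0.24, edgeR adjusted p 0.255). Chaf1a, which loads histones onto new DNA, was at 11.1 and 13.9 CPM against 15.2 and 27.7 CPM (0.74, SE 0.15). Timeless, a replication fork protein, was at 2.74 and 4.97 CPM against 5.52 and 11.0 CPM, and Mcm10, needed to start forks, at 2.80 and 7.03 CPM against 4.66 and 17.6 CPM. Without LysM-cKO replicate 2 the count was 2 of 43 and the median 0.09. Without the pairing the count was 4, without WT replicate 2 it was 6, and without LysM-cKO replicate 1 it was 31 with a median of 0.73. The shares of all genes higher at that p in these 4 settings were 2.72%, 3.02%, 2.62% and 6.21%.

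Genes that regulate the passage from G1 to S gave a median of 0.30. Of the 17 tested, 7 were higher at an unadjusted p under 0.05, against 6.53% of all genes tested. Without overlap, 4 of the 17 were higher and 0 lower, against 17.5% and 14.8% of all genes. The list held the transcription factors E2f2 (9.44 and 14.4 CPM in WT, 15.1 and 34.3 CPM in LysM-cKO), E2f8 (4.6 and 6.84 against 6.84 and 18.8 CPM) and Foxm1 (10.1 and 15.3 against 14.9 and 38.7 CPM). Of these, E2f2 and E2f8 kept their groups apart, E2f8 by less than 0.01 CPM. Without LysM-cKO replicate 2 the median was 0.15, and without LysM-cKO replicate 1 it was 0.52. Without the pairing, 2 of 17 were higher at an unadjusted p under 0.05, against 3.02% of all genes tested. Among 10 cell cycle inhibitors the median was 0.08. At an unadjusted p under 0.05, 4 of the 10 were higher, against 6.53% of all genes tested. Cdkn1a, which encodes the kinase inhibitor p21, was at 274 and 307 CPM in WT and 336 and 432 CPM in LysM-cKO, without overlap (log2 fold change 0.40, SE 0.11, edgeR adjusted p 0.269). Cdkn2c, the inhibitor p18, was at 29.4 and 33.1 CPM against 33.1 and 66.6 CPM.

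**Figure D2:**
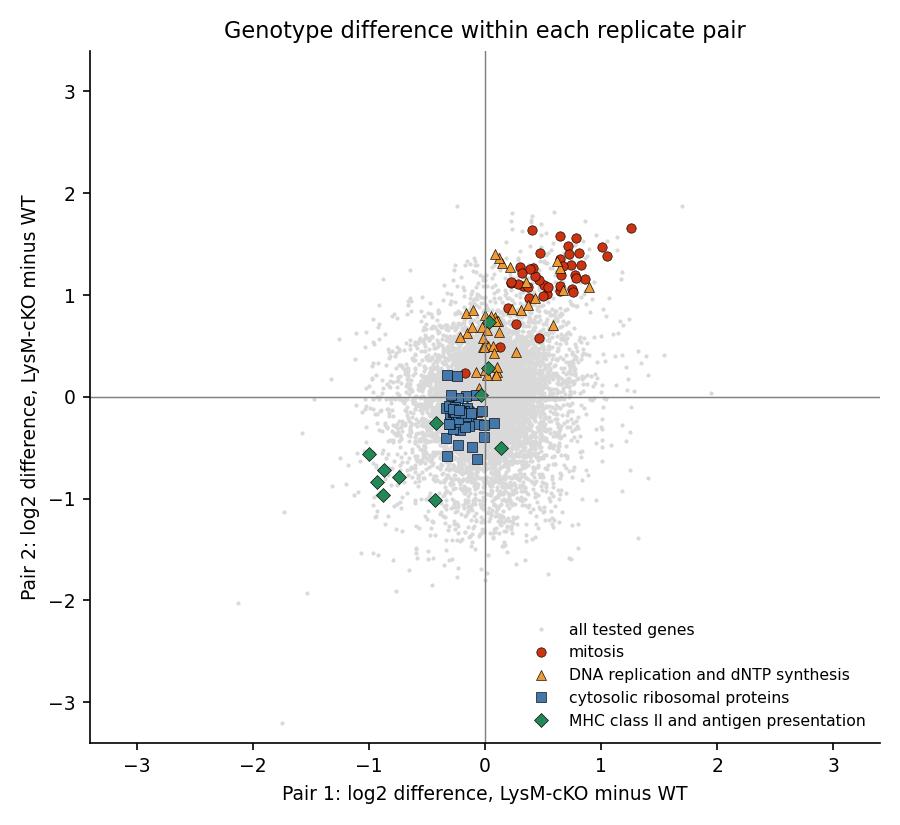
Log2 difference of LysM-cKO minus WT, on log2(CPM + 0.5), in pair 1 (x axis) and pair 2 (y axis) for all 14030 genes tested (grey) and 4 gene lists (colours). Mitotic genes lie to the upper right, with 42 of 44 higher in both pairs, replication genes lie above 0 mainly in pair 2, and ribosomal protein genes cluster just below 0 in both.

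The promoters of the mitotic genes were searched for 2 known motifs, whose presence is a property of the list and does not depend on the genotype. Many G2 and M phase genes are known to carry a cell cycle genes homology region (CHR, letters TTTGAA) and CCAAT boxes close to their start. Both motifs were searched on both strands from 250 bases before to 50 bases after each RefSeq start (GRCm38.p6), with overlapping matches counted separately. For mitosis 36 of 44 genes had a promoter in the table, with 38 windows. The CHR letters were in 30 of these 38 windows (78.9%), against 12.3% of 13012 windows of tested genes and 17.9% of all 32851 windows. CCAAT was in 29 of the 38 (76.3%), against 37.6% and 37.4%. In replication gene windows the CHR letters were in 10.3% and CCAAT in 59.0%. Ribosomal protein gene windows held them in 5.77% and 32.7%. These are matches of letters and not tested sites. The promoters of 3 of the 4 mitotic genes named first above are given, with CHR and CCAAT letters of either strand in capitals. Ccnb2 (chr9:70421505-70421804, minus strand) has both motifs, Ndc80 (chr17:71526808-71527107, minus strand) has a CHR match only, and Nusap1 (chr2:119618048-119618347, plus strand) has neither in this window.
Ccnb2: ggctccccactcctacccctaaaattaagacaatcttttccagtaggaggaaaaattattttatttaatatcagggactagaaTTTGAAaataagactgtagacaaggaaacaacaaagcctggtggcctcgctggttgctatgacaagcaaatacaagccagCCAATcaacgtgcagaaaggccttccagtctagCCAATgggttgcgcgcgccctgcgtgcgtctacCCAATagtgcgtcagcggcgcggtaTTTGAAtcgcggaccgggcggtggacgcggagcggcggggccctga
Ndc80: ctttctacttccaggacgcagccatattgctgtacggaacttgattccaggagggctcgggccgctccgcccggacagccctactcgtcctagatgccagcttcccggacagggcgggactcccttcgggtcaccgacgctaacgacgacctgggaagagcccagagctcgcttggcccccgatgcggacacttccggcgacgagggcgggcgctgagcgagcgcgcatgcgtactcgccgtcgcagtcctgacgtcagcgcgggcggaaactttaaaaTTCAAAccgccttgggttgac
Nusap1: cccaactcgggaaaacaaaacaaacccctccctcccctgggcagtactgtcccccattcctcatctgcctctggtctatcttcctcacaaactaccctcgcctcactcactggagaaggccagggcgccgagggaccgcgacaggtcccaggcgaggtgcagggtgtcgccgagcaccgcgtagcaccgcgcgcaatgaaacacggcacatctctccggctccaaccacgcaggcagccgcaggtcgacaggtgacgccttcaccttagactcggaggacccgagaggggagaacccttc
The genotype log2 fold changes of Ccnb2, Ndc80 and Nusap1 were 1.15, 1.32 and 1.55, and a link to the motifs was not tested.

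Ribosomal protein genes lay slightly but evenly lower. All 57 tested members of the cytosolic ribosome had a log2 fold change below 0, against 48.6% of all genes tested. Values ran from −0.49 to −0.01, with a median of −0.20. Scaled by library size alone, 56 were below 0. None passed (0 of 57, smallest edgeR adjusted p 0.25), while 37 were lower at an unadjusted p under 0.05, against 3.99% of all genes tested. In both pairs 51 of 57 were lower, against 27.7% of all genes. Their sum was 15263 and 17604 CPM in WT and 13087 and 15572 CPM in LysM-cKO. Within each pair LysM-cKO was lower, yet WT replicate 1 lay below LysM-cKO replicate 2, so the groups overlap. Rpl34 was at 171 and 191 CPM in WT and 145 and 138 CPM in LysM-cKO (log2 fold change −0.35, SE 0.08, edgeR adjusted p 0.25). Rpl30 was at 269 and 283 CPM against 216 and 235 CPM (−0.29, SE 0.07), Rpl22 at 178 and 189 CPM against 144 and 157 CPM, and Rpl7 at 661 and 692 CPM against 546 and 556 CPM. These 4 proteins of the large subunit had no overlap between groups. Of all 57, 21 had LysM-cKO below WT without overlap, against 14.8% of all genes tested.

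The median over ribosomal protein genes was steady when a library was left out, from −0.25 to −0.20. The count at an unadjusted p under 0.05 was not: it was 19 without LysM-cKO replicate 1, 28 without LysM-cKO replicate 2, 22 without WT replicate 1, 17 without WT replicate 2 and 6 without the pairing. The shares of all genes lower at that p were 5.85%, 2.41%, 3.90%, 2% and 1.40% in the same settings. Many ribosomal protein genes have processed pseudogenes, and reads may have been divided between them. Genes of ribosome biogenesis, which process ribosomal RNA and assemble subunits and which need GTP, had a median of −0.05 with 3 of 38 higher and 4 lower at an unadjusted p under 0.05. Npm1, the abundant nucleolar chaperone, was at 267 and 275 CPM in WT and 247 and 213 CPM in LysM-cKO (−0.25, SE 0.08). Nop16 was at 14.3 and 19.8 CPM against 11.8 and 13.6 CPM, and Utp20, in the other direction, at 40.3 and 36.3 CPM against 43.3 and 52.1 CPM.

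Stress pathways that are known to respond to nucleotide or amino acid shortage were examined next. The p53 target list had a median of 0.07 over 35 genes, with 5 higher and 1 lower at an unadjusted p under 0.05, against 6.53% and 3.99% of all genes tested, and 0 passing. Both LysM-cKO libraries lay above both WT libraries for 15 of the 35 and below them for 4, against 17.5% and 14.8% of all genes. Beside Cdkn1a, Zmat3 was at 86.2 and 95.9 CPM in WT and 109 and 115 CPM in LysM-cKO (log2 fold change 0.30, SE 0.08, edgeR adjusted p 0.264). Mdm2, the ubiquitin ligase of p53, was at 107 and 115 CPM against 122 and 141 CPM (0.24, SE 0.07). It is also among the genes within 1 Mb of Lyz2. Gtse1, at 10.3 and 12.9 CPM against 14.5 and 25.6 CPM, is known as a gene of G2 phase as well as a p53 target. The integrated stress response list had a median of −0.19, and 0 of 32 passed. At an unadjusted p under 0.05, 1 was higher and 3 lower, against 6.53% and 3.99% of all genes tested. Of the 32, 26 lay below 0, against 48.6% of all genes. In both pairs 20 were lower and 4 higher, against 27.7% and 29.5%. Without overlap 8 were lower and 1 higher, against 14.8% and 17.5%. Asns, asparagine synthetase, was at 13 and 20.0 CPM against 10.9 and 14.2 CPM (−0.38, SE 0.13), and Cebpb at 61.8 and 79.5 CPM against 55.1 and 60.0 CPM. Mthfd2, a mitochondrial folate enzyme, was at 6.99 and 13.6 CPM against 8.68 and 17.7 CPM.

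Energy and lipid metabolism had list medians within 0.07 of 0. Nuclear genes of oxidative phosphorylation had a median of −0.07, with 0 of 75 higher and 3 lower at an unadjusted p under 0.05; leaving out WT replicate 1 gave a median of 0.03, and leaving out WT replicate 2 gave −0.15. Ndufc2, a complex I subunit, was at 34.3 and 35.9 CPM in WT and 28.2 and 28.1 CPM in LysM-cKO (−0.32, SE 0.11, edgeR adjusted p 0.358). The 13 protein-coding transcripts of the mitochondrial genome had a median of −0.05 with none at an unadjusted p under 0.05. Glycolysis had a median of 0.04, cholesterol synthesis −0.07 and lysosome genes 0.02. Leaving out LysM-cKO replicate 1 put the mitochondrial median at −0.18, and leaving out LysM-cKO replicate 2 put it at 0.10; the glycolysis, lysosome, guanine and purine medians also changed sign when 1 library was left out. Within these, Pfkl, a phosphofructokinase, was at 49.6 and 54.2 CPM against 41.3 and 45.6 CPM (−0.26, SE 0.08). The lysosomal protease Ctsh was at 254 and 302 CPM against 208 and 230 CPM (−0.35, SE 0.10).

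Antigen presentation by MHC class II, which displays peptides to helper T cells, was the pathway list farthest below WT. Of 13 listed genes 11 were tested, with a median of −0.73. None passed (0 of 11), and 6 were lower at an unadjusted p under 0.05, against 3.99% of all genes tested. H2-Ab1, a class II beta chain, was at 18.8 and 26.7 CPM in WT and 9.94 and 13.5 CPM in LysM-cKO (log2 fold change −0.96, SE 0.19, edgeR adjusted p 0.229). H2-Aa, an alpha chain, was at 26.7 and 33.3 CPM against 13.8 and 18.4 CPM (−0.90, SE 0.20). Cd74, the invariant chain, was at 62.4 and 72.1 CPM against 31.0 and 48.7 CPM, and the costimulatory gene Cd86 at 25.6 and 20.3 CPM against 18.9 and 9.76 CPM. All 4 had LysM-cKO below WT in every library. Ciita, the master regulator of class II transcription, was at 1.57 and 1.93 CPM against 0.632 and 0.970 CPM. Not all of the list followed: H2-DMb1, which helps load peptides, was at 20.0 and 26.4 CPM against 19.5 and 26.8 CPM. Of the 11 tested, 2 were higher in both pairs and 7 lower, against 29.5% and 27.7% of all genes. Both LysM-cKO libraries lay above both WT libraries for 1 and below them for 6, against 17.5% and 14.8% of all genes. The highest log2 fold change of the list was 0.50. The list median was −0.32 without WT replicate 2. H2-Eb1, H2-DMb1 and Ciita were named after their values were seen; H2-Eb1 was at 15.6 and 22.7 CPM against 9.08 and 13 CPM.

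Dendritic cells carry much MHC class II, and their markers were at 268 and 176 CPM in WT and 211 and 125 CPM in LysM-cKO, mostly from Clec10a and Itgax, which macrophages also express. Of the defining dendritic genes, Zbtb46 was at 0.303 to 0.995 CPM and Batf3 at 1.22 to 2.73 CPM over the 4 libraries. Clec10a was at 151 and 101 CPM in WT and 115 and 52.4 CPM in LysM-cKO (−0.66, SE 0.12, edgeR adjusted p 0.229). The part of these cells in the class II values was not tested. Interferon-stimulated genes had a median of −0.04 with 0 of 40 higher and 1 lower at an unadjusted p under 0.05; leaving out WT replicate 1 gave a median of −0.27, and leaving out WT replicate 2 one of 0.16. Inflammatory cytokines and chemokines had a median of −0.06 with 0 of 25 higher and 3 lower. Those were Il1rn, the interleukin 1 receptor antagonist (28.3 and 18.8 against 19 and 13.1 CPM), Ccl5 (2.04 and 1.62 against 0.690 and 0.606 CPM) and Ccl8 (3.20 and 2.18 against 1.44 and 0.728 CPM).

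**Figure D3:**
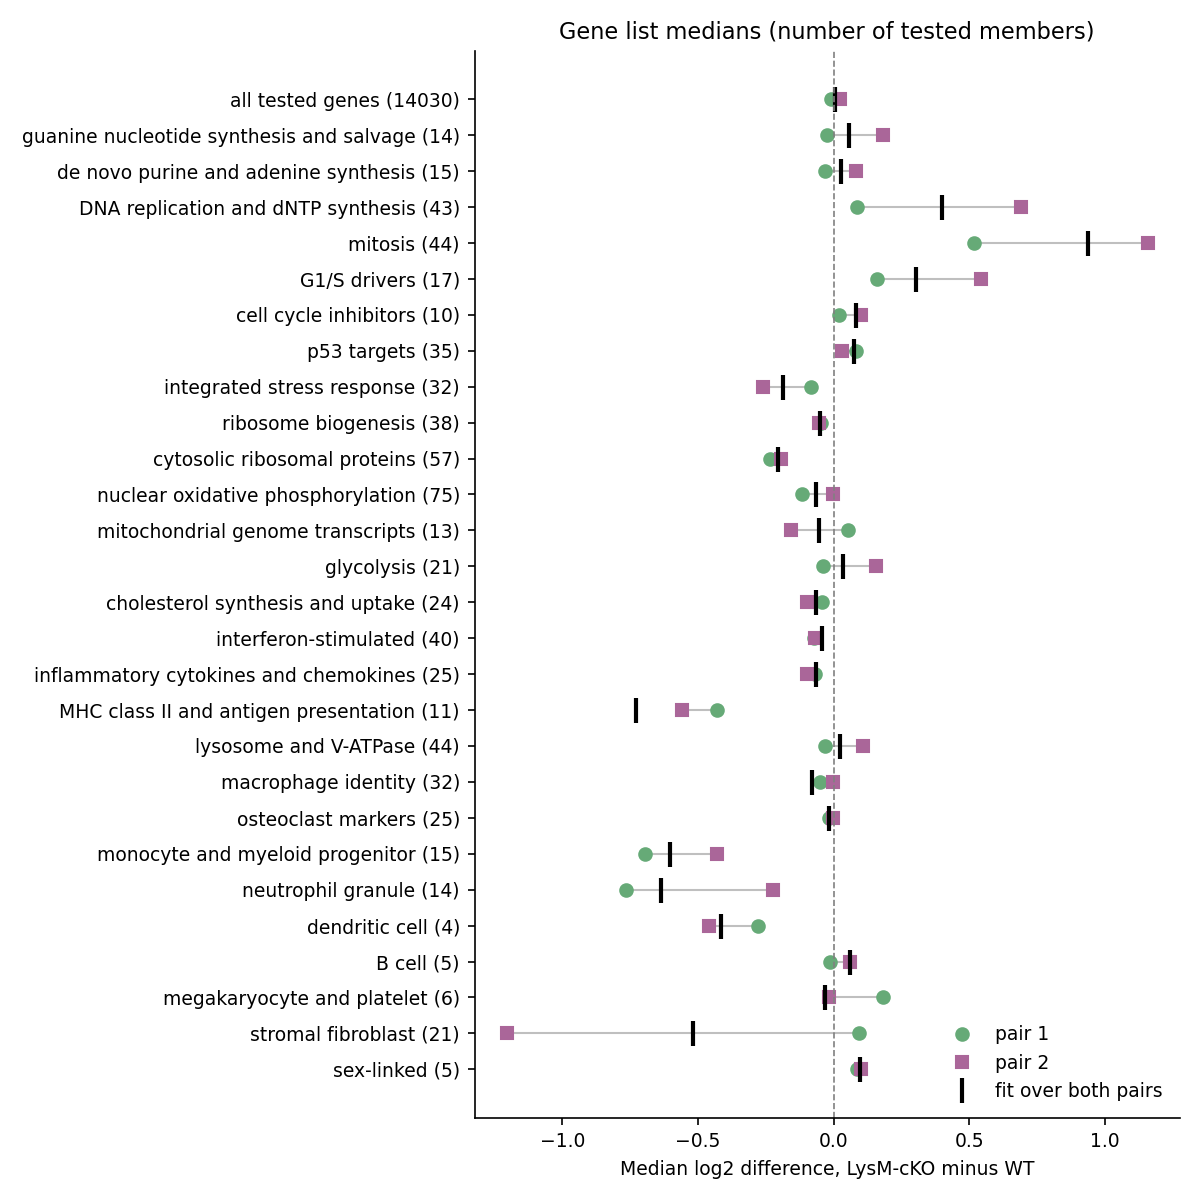
Median log2 difference of LysM-cKO minus WT for each gene list with 4 or more tested members (number in brackets), in pair 1 (circles), pair 2 (squares) and the fit over both (bars). Pair values are medians on log2(CPM + 0.5), so that lists of low genes lie nearer 0 than in the fit. Mitosis is highest at 0.94, MHC class II lowest at −0.73, and the stromal fibroblast list differs between pairs.

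Among all other genes tested, those with the smallest p were taken by rule, 8 higher and 8 lower, from those whose higher group averaged 5 CPM or more, with no overlap and the same direction in both pairs. None passed in the main edgeR fit, with adjusted p from 0.105 to 0.180 for the higher and 0.118 to 0.229 for the lower. DESeq2, run on the same counts, called all 16, with adjusted p from 2.43e-06 (Cd109) to 0.0356 (Adra1a). The genes were picked for small p in these counts, so the DESeq2 calls are not independent of the choice. Without the pairing the edgeR adjusted p was 0.997 for each of the 16. Higher in LysM-cKO were several surface and signalling genes. Cd109, a surface glycoprotein that binds TGF-beta, was at 9.61 and 13.4 CPM in WT and 15.6 and 31.7 CPM in LysM-cKO (log2 fold change 1.00, SE 0.14). Dmpk, a protein kinase known from myotonic dystrophy, was at 8.04 and 13.3 CPM against 14.0 and 29.9 CPM (1.00, SE 0.12). Both lay apart by a small margin set by WT replicate 2 and LysM-cKO replicate 1.

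Cadm1, a cell adhesion molecule, was the most abundant of these genes at 241 and 253 CPM in WT and 343 and 388 CPM in LysM-cKO (0.56, SE 0.09). Ulbp1, a ligand of the NKG2D receptor of natural killer cells, was at 33.8 and 37.8 CPM against 49.1 and 64.6 CPM (0.66, SE 0.09). Adra1a, an alpha-1 adrenergic receptor, had replicates that were close together, at 20.2 and 20.2 CPM against 31.6 and 35.7 CPM (0.74, SE 0.12). Zbtb20, a zinc finger transcription factor, was at 23.7 and 22.0 CPM against 41.2 and 31.0 CPM. Arfgef3 was at 4.66 and 3.86 CPM against 10.9 and 12.4 CPM, and Adgb, androglobin, at 1.92 and 2.36 CPM against 4.83 and 7.28 CPM. The log2 fold changes of the last 2 were 1.44 (SE 0.20) and 1.49 (SE 0.23), the widest of the 8.

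Lower in LysM-cKO was Slc15a2, a transporter of small peptides, at 14.1 and 8.58 CPM in WT and 3.85 and 0.485 CPM in LysM-cKO. This was the widest difference of the 16 genes and the least precise (log2 fold change −2.43, SE 0.41, edgeR adjusted p 0.194). Leaving out LysM-cKO replicate 1 put Slc15a2 at −4.08, and leaving out LysM-cKO replicate 2 put it at −1.93. N4bp3 was at 28.4 and 18.4 CPM against 16.9 and 8.73 CPM (−0.89, SE 0.12) and Gpr162, an orphan receptor, at 63.5 and 42.7 CPM against 41.8 and 17.4 CPM (−0.90, SE 0.15). Clec4a3, a C-type lectin receptor of myeloid cells, was at 76.9 and 67.2 CPM against 57.5 and 41.5 CPM (−0.56, SE 0.09). Fah, the last enzyme of tyrosine breakdown, was at 16 and 22.4 CPM against 8.74 and 9.70 CPM, and Tmem176b at 28.5 and 33.4 CPM against 20.6 and 14.0 CPM. H2-Ab1 was described above. The mitochondrial ribosomal RNA mt-Rnr1 was at 289 and 280 CPM against 220 and 191 CPM (−0.47, SE 0.08). Cd4, which fell outside the rule because its groups overlap, was at 111 and 31.1 CPM in WT and 52.4 and 10.4 CPM in LysM-cKO (−1.25, SE 0.18, edgeR adjusted p 0.131).

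**Figure D4:**
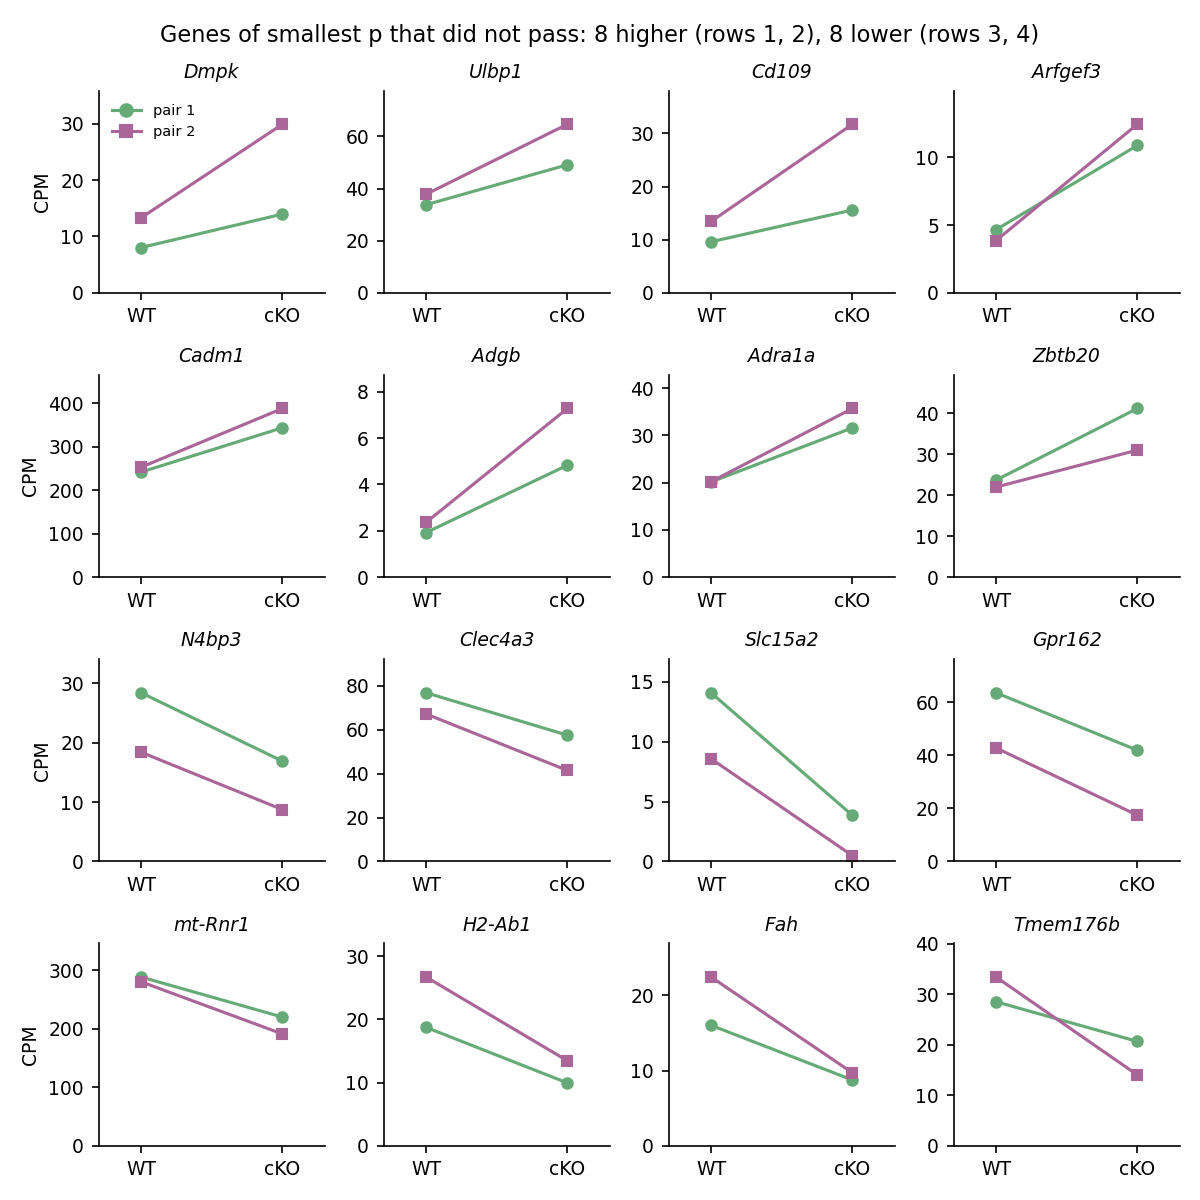
Normalised counts (CPM, linear axis from 0) of the 8 higher and 8 lower genes of smallest p in WT and LysM-cKO, with lines joining the libraries of pair 1 (circles) and pair 2 (squares). By the rule of selection, in each panel both lines run in the same direction and the genotypes do not overlap. No gene shown passed in the main edgeR fit, and all 16 passed in DESeq2 on the same counts. Without the pairing each had an edgeR adjusted p of 0.997.

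The cell makeup of the cultures was read from marker lists. Stromal fibroblast genes set LysM-cKO replicate 2 apart, at a sum of 1175 CPM against 2688 and 2626 CPM in WT and 2993 CPM in LysM-cKO replicate 1. Col1a1, a collagen chain, was at 730 and 645 CPM in WT and 834 and 267 CPM in LysM-cKO (log2 fold change −0.54, SE 0.40, edgeR adjusted p 0.705). The list median was −0.52, and the pair medians were 0.09 and −1.21. At an unadjusted p under 0.05, 4 of 21 were lower, against 3.99% of all genes tested. The list median ran from −1.07 (LysM-cKO replicate 1 left out) to −0.10 (WT replicate 2 left out). The library with least fibroblast RNA was thus also that with the most mitotic RNA. In pair 1, where the fibroblast sums were 2688 and 2993 CPM, the mitosis median was 0.52. The part of the fibroblast genes in the other results was not tested.

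Neutrophil granule genes had a median of −0.64. At an unadjusted p under 0.05, 6 of 14 were lower and 1 higher, against 3.99% and 6.53% of all genes tested. The neutrophil sums of 624 and 294 CPM in WT and 378 and 284 CPM in LysM-cKO overlapped. S100a9 was at 131 and 52.1 CPM against 66.8 and 33.0 CPM and Ngp at 133 and 50.9 CPM against 67.8 and 34.9 CPM, both lower within pairs. The higher gene was Mmp8, neutrophil collagenase, at 34.4 and 52.1 CPM against 62.7 and 106 CPM (0.96, SE 0.33, edgeR adjusted p 0.37). Omitting LysM-cKO replicate 1 gave a neutrophil median of −0.02, and omitting LysM-cKO replicate 2 gave −0.97. Monocyte and myeloid progenitor genes had a median of −0.60, with all 15 tested below 0, against 48.6% of all genes tested. At an unadjusted p under 0.05, 4 were lower, against 3.99% of all genes. Without LysM-cKO replicate 2 the list median was −1.06. Most of the listed genes were rare: the abundant members Irf8 (220 and 210 against 193 and 199 CPM) and Csf3r (107 and 109 against 103 and 99.1 CPM) were near their WT level.

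Genes that define T cells, erythroid cells and mast cells were nearly absent. The B cell list summed to 75.6 to 90.5 CPM over the 4 libraries, mostly from Ighm and Cd22, and the T and NK cell list to 165 to 310 CPM, mostly from Il7r and Cd4. Cd3d, Cd3e and Cd3g, which define T cells, had 0 counts in all 4 libraries, which allows up to the floor in each. The erythroid list summed to at most 4.66 CPM and the mast cell list to at most 2.41 CPM in any library. The megakaryocyte list was at 216 and 187 CPM in WT and 291 and 251 CPM in LysM-cKO, mainly from Pf4 at 197 and 174 CPM against 266 and 227 CPM. Vwf, von Willebrand factor, was at 13.2 and 7.96 CPM against 20.0 and 19.8 CPM (0.92, SE 0.23, edgeR adjusted p 0.261). Macrophage identity genes had a median of −0.08 (from −0.14 to 0.03 when LysM-cKO replicate 2 or WT replicate 2 was left out), with 2 of 32 higher and 1 lower at an unadjusted p under 0.05. The osteoclast list had a median of −0.02 (from −0.26 to 0.29 when LysM-cKO replicate 1 or 2 was left out) and 1 of 25 at an unadjusted p under 0.05, Rufy4, which was at or below the floor in every R0D3 library.

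**Figure D5:**
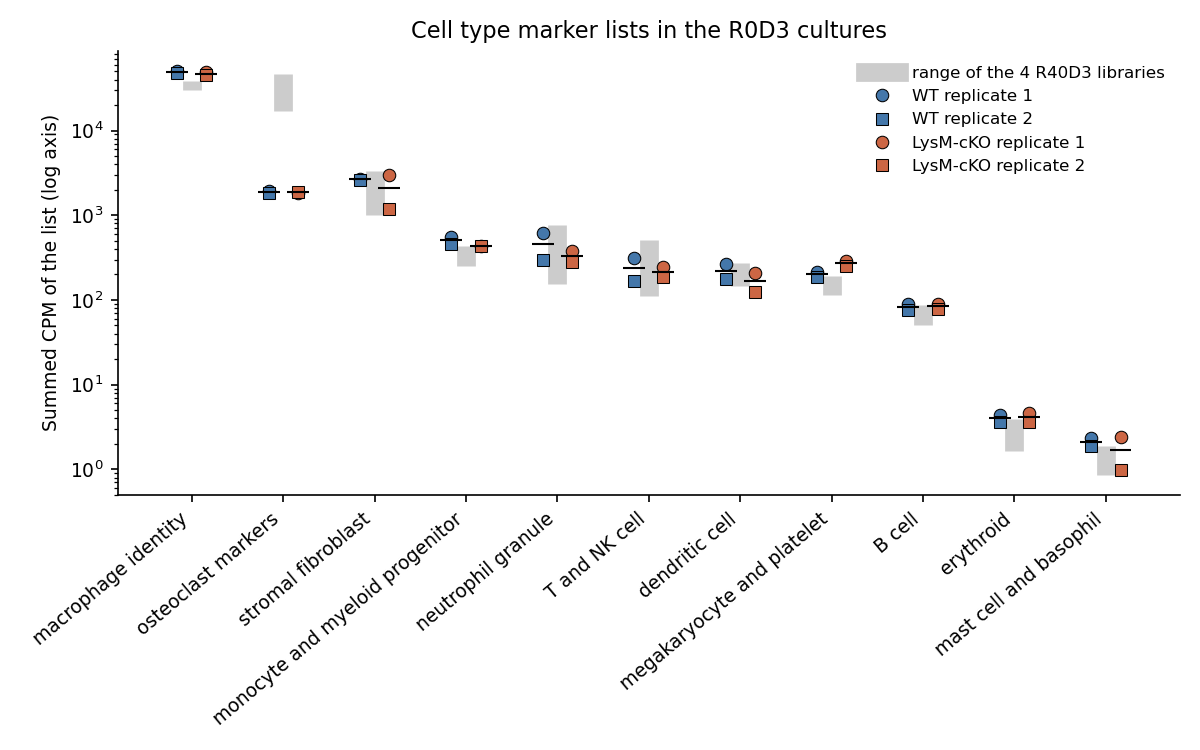
Summed CPM (log axis) of each cell type marker list in the 4 R0D3 libraries (points, bars at means of 2), with the range of the 4 R40D3 libraries in grey. Macrophage genes exceed all other lists, osteoclast markers lie below their R40D3 range, and LysM-cKO replicate 2 has the fewest fibroblast counts of the R0D3 libraries at 1175 CPM.

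Whether the genotype effect depended on the culture was tested as the difference between the effects at R0D3 and R40D3. No gene passed in the main edgeR fit (0 of 14030), and 841 had an unadjusted p under 0.05, which is 5.99%. DESeq2 gave 2 calls. For Impdh2 the log2 fold changes were −1.80 at R0D3 and −1.73 at R40D3, with a difference of −0.07 (SE 0.19). For Lyz1 they were 1.80 and 2.09, with a difference of −0.29 (SE 0.17). For Lyz2 they were −1.01 and −0.76. The smallest p belonged to Cd109, which was at 1.00 at R0D3 and −0.33 at R40D3 (difference 1.33, SE 0.17, edgeR adjusted p 0.578). Arsb, a lysosomal sulfatase, was at 0.49 and −0.80, and C3, the central complement component, at −0.52 and 0.37, with the same adjusted p.

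Among the lists, mitosis had a median of 0.94 at R0D3 and 0.68 at R40D3, and MHC class II −0.73 and −0.74. Ribosomal proteins were at −0.20 and −0.09. Nuclear oxidative phosphorylation was at −0.07 and −0.32 and osteoclast markers at −0.02 and −0.61. For the difference, 24 of 75 and 5 of 25 members had an unadjusted p under 0.05, against 5.99% of all genes tested. At R0D3 several of these osteoclast markers were at or below the floor in both genotypes, where a difference could not be detected at this depth.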

How the data were processed

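RNA was extracted with TRIzol and sequenced after an mRNA library preparation, per the labels' protocols. The deposited culture tables, 1 per replicate number, hold unnormalised counts of reads for each Ensembl gene. FastQC 0.11.2, Trimmomatic 0.36, HISAT2 2.1.0, DESeq2 1.12.4 and the build GRCm38 are named per the submitters' processing notes; the counting tool, annotation release and use of strand are not given in the sources used here. Of the identifiers, 99.5% matched a symbol. Positions came from GENCODE M21, and the authors may have used another release.

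Counts were filtered with filterByExpr, scaled by TMM and tested with edgeR 4.0.16 (R 4.3.3; quasi-likelihood, legacy = FALSE, two-sided), with group means and replicate number as a block, on the 8 culture libraries (3 residual degrees of freedom). SE is the absolute log2 fold change over the square root of F. The pairing comes from the labels' replicate numbers: libraries with the same number departed from their group means together, correlated across genes, in all 6 pairs of groups (r from 0.288 to 0.611; 0.434 for the groups compared). Replicates differed beyond sampling noise (chi-square per degree of freedom 10.7 in WT, 22.3 in LysM-cKO). Alternatives were no block, DESeq2 1.42.0, other scaling and filters, the 4 libraries alone, legacy = TRUE, summed near-identical genes and leaving out each library. Scripts were tested on simulated counts.

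Named genes were Impdh2, Impdh2-ps, Impdh1, Lyz1 and Lyz2, called genes, the 8 smallest p in each direction, up to 4 members per list (smallest p, or highest level for cell types) and the 3 smallest p of the difference in effects. The comparison, the 31 lists and this rule were chosen with earlier results of these data known. The symbols Atp6v0a3, Tm7sf4 and Ahsp matched no gene. The forelimb libraries were not used here.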

Additional observations from a re-analysis of the deposited data

How the results depend on the processing

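Genes at or below the floor of 3 counts allow no statement at this depth. The 3 calls became 61 with DESeq2 (39 higher, 22 lower, the 3 included), of which 11 were mitotic and 3 MHC class II genes, 5 with only the 4 R0D3 libraries (adding Mmp8 and Mki67) and 1 with near-identical genes summed. Without the replicate block there were 2 calls, and genes at an unadjusted p under 0.05 went from 1476 to 620. Leaving out a library gave 0 calls (WT replicate 2) to 11 (LysM-cKO replicate 1), and 0 to 2 for the difference between R0D3 and R40D3; DESeq2 gave 2 for the latter, and the cause was not tested.

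Impdh2 ranged from −1.97 to −1.67 over 13 alternatives (edgeR or DESeq2 adjusted p 6.63e-15 to 0.0697), missing the threshold only without WT replicate 2. Lyz1 ranged from 1.73 to 1.85 over 12 (adjusted p 1.45e-27 to 0.524), and without the block it was 1.79. Among fits that left out a library, Impdh2 ran from −1.97 to −1.67, Lyz1 from 1.73 to 1.85 and Impdh1 reversed, to −0.0042 on omitting LysM-cKO replicate 2 and −0.0037 on omitting WT replicate 2 (its highest was 0.22). Lyz2 passed with DESeq2 (−1.02, adjusted p 6.29e-24) and without the filter on low counts (−1.03, adjusted p 0.00233), and not in the other 11 (adjusted p up to 0.997). Over the Impdh and lysozyme genes above and the genes taken by the naming rule for their small p, 268 values kept their direction and side of the threshold, 21 newly passed, 6 no longer passed and 2 reversed.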

Other observations

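Genes of the male chromosome were present in all 4 libraries: Ddx3y was at 70.5 and 70.8 CPM in WT and 91.1 and 87.0 CPM in LysM-cKO, and Xist was at 0.402 CPM or less. Mt-Rnr2, the other mitochondrial ribosomal RNA, was at 472 and 464 CPM in WT and 415 and 337 CPM in LysM-cKO (mt-Rnr2 log2 fold change −0.32, SE 0.09, edgeR adjusted p 0.27), below WT in both libraries as mt-Rnr1 was.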
